A study of Mus musculus with 21 samples.

Results

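The genes described here are the 7 core enzymes that write and remove DNA methylation: the methyltransferases Dnmt1, Dnmt3a and Dnmt3b, the Dnmt1 partner Uhrf1, and the 5-methylcytosine oxidases Tet1, Tet2 and Tet3. They were chosen by name, with earlier results of these data known, and all 7 were found among the 55400 genes of the count table. DNA methylation at CpG sites is copied to the new strand after replication by Dnmt1, which Uhrf1 recruits by binding hemimethylated DNA. Dnmt3a and Dnmt3b place methyl groups on unmethylated DNA, with Dnmt3b known for its high expression in the early embryo and Dnmt3a for its expression in the nervous system. The Tet enzymes oxidise 5-methylcytosine to 5-hydroxymethylcytosine, which is abundant in neurons, and they need iron and 2-oxoglutarate, as the histone demethylase Kdm6b does.

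RNA-seq was performed on 21 libraries of motor neuron cultures in 7 groups of 3 biological replicates, to ask how gene expression changes as motor neurons form and when Kdm6b activity is inhibited. All groups were WT cells differentiated from C57BL/6 mouse ESCs, which had been kept on Mitomycin-C-treated fibroblasts. Embryoid bodies of 500 cells were given 1 µM retinoic acid and 0.5 µM of the Sonic Hedgehog agonist SAG from day 2. For motor neurons of the hypaxial motor column type, 5 µM of the Notch pathway inhibitor DAPT was added at day 4 and again at day 5. The medium given from day 5 is described without retinoic acid and SAG. D4 was collected on the day that DAPT was added, and the later stages came 8 h or more after D4. Stage comparisons thus also differ in medium and in time with DAPT, and the part of neither was tested. The untreated groups were D4 (day 4, motor neuron progenitors), D4H8 (8 h later, proneural motor neurons), D5 (newborn motor neurons) and D6 (more mature motor neurons). The treated groups D4H8_GSKJ4, D5_GSKJ4 and D6_GSKJ4 had received GSKJ4, a small-molecule inhibitor of the Kdm6 histone H3K27 demethylases, for the last day before collection. D4 had no treated group, and the GSKJ4 dose was not used here.

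All 21 libraries carry the cell type label of differentiated motor neurons, but the 6 motor neuron markers (Isl1, Mnx1, Isl2, Lhx3, Slc18a3 and Chat) summed to only 7.53 to 19.1 FPKM at D4, against 394 to 456 FPKM at D6. FPKM is the number of reads per kilobase of exon, scaled to the counted reads of the library, and levels of different genes are compared here on that scale alone. Markers of pluripotent cells (9 genes, among them Pou5f1, Nanog and Dppa5a) were above 0 in every group and lowest in replicate 1 of all 7 groups. At D6 their sum was 15.9, 124 and 112 FPKM in replicates 1, 2 and 3. Markers of S phase and cycling cells (16 genes) fell from 1313 to 1401 FPKM at D4 to 124 to 292 FPKM at D6, also with replicate 1 lowest. Neuron markers (6 genes) went from 31.2 to 63.9 FPKM at D4 to 1792 to 2080 FPKM at D6, and those of feeder fibroblasts (8 genes) were between 4.41 and 28.3 FPKM in all groups. Of these 8, 2 rose between D4 and D6 (32.9% of all tested genes did), Dcn from 0.507 to 6.22 FPKM and Col3a1 from 1.64 to 5.48 FPKM. The median sum was 9.81 FPKM at D4 and 19.7 FPKM at D6. No listed marker was at 0 in all 3 libraries of a group. Replicate 1 stood apart at several stages, and D6 against D4 is given for each gene with and without it, a setting chosen after seeing the data. Total counts were 14982115 to 34383842 per library, 39381 genes were at 0 in D5_GSKJ4 replicate 2 against 29339 to 32805 in the others, and each of the 7 genes had at least 106 counts in every library. In bulk cultures, fewer cells of a type and less RNA per cell cannot be told apart.

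Between D4 and D6 the maintenance pair Dnmt1 and Uhrf1, Dnmt3b and Tet1 fell, Tet2 and Tet3 rose, and Dnmt3a did not pass the test. The fall of Tet1 was the least certain of these, with overlapping libraries and a call in 13 of 19 alternatives.

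**Figure D1:**
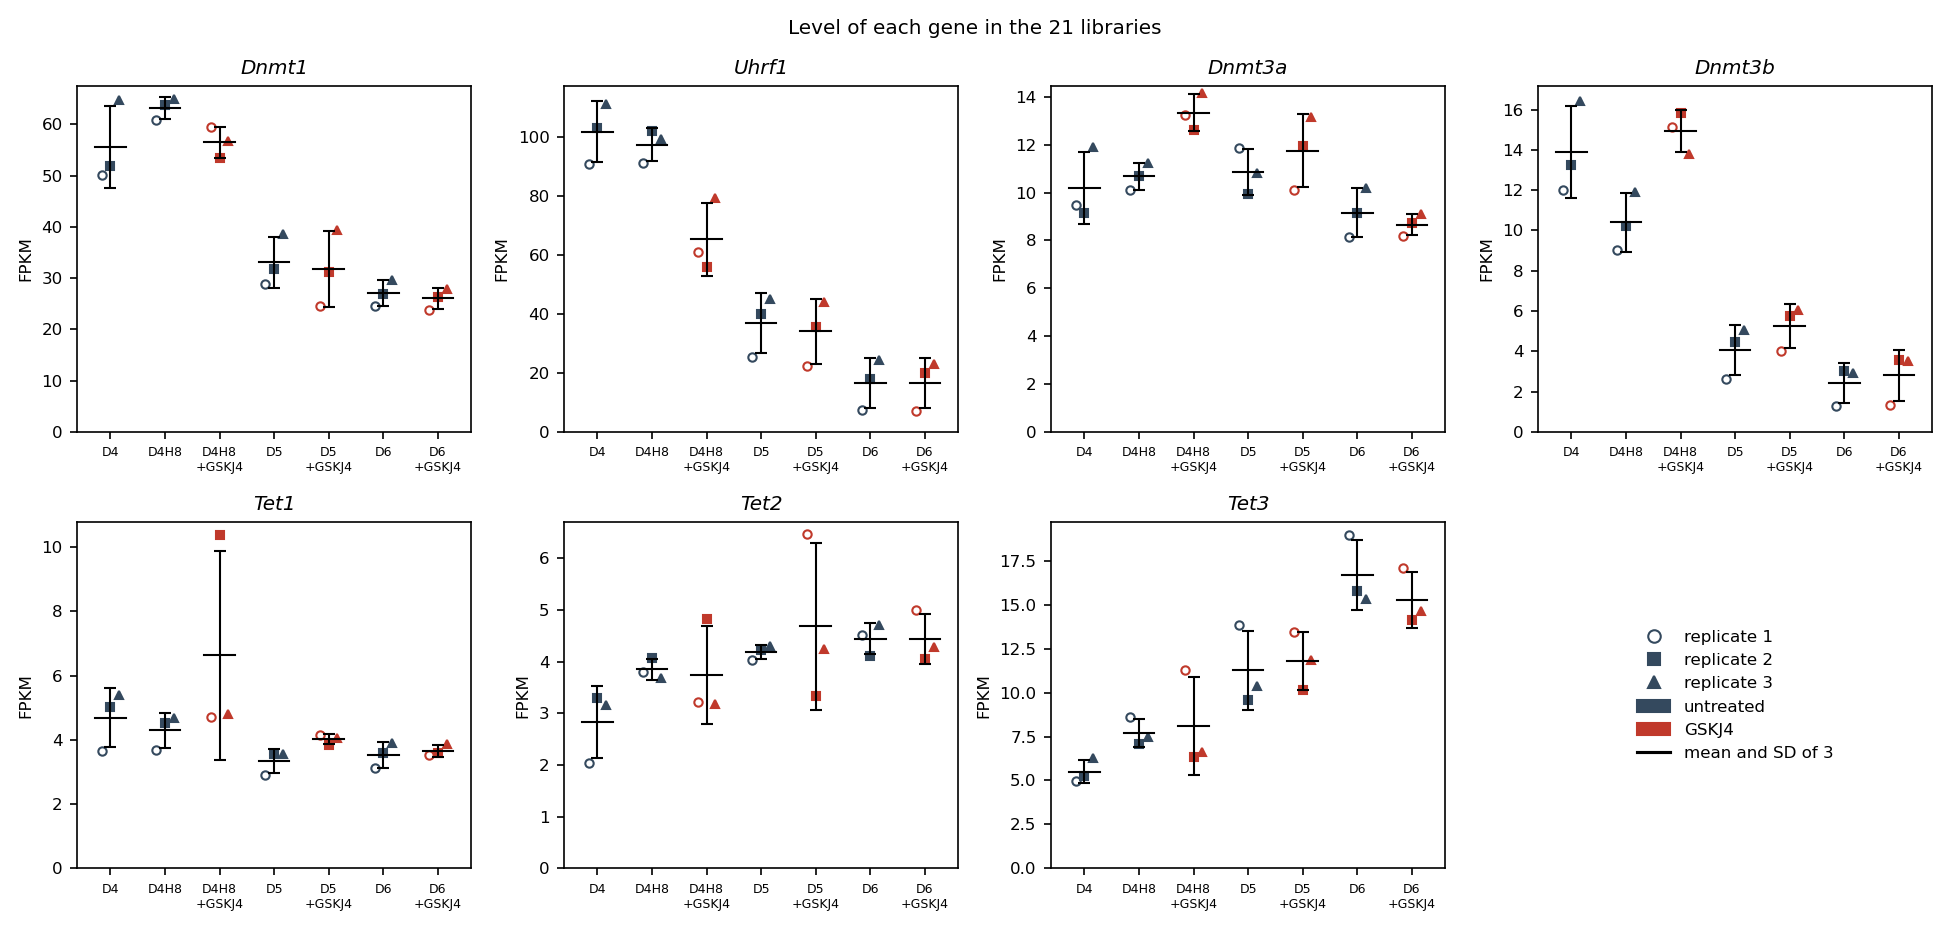
Level in FPKM (vertical axes, starting at 0) of the 7 genes in the 7 groups (horizontal axes); each marker is 1 library, with its shape giving the replicate number, and lines and bars give the mean and SD of 3 libraries. Uhrf1 goes from 90.7 to 111 FPKM at D4 to 7.44 to 24.3 FPKM at D6, Tet3 goes from 4.97 to 6.26 FPKM to 15.3 to 19.0 FPKM, and the Dnmt3a libraries stay between 8.16 and 14.2 FPKM.

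Dnmt1 (ENSMUSG00000004099, GRCm38 chr9:20907209-20959888, minus strand) is the maintenance methyltransferase. Its level was 50.2, 51.9 and 64.7 FPKM in D4 replicates 1, 2 and 3, and 60.8, 63.8 and 65.1 FPKM at D4H8. It then stood at 28.9, 31.8 and 38.6 FPKM at D5 and 24.5, 26.9 and 29.7 FPKM at D6. Every D5 and D6 library was below every D4 and D4H8 library, while the D5 and D6 libraries overlapped. The drop therefore lay between D4H8 and D5, where the log2 difference stood at -0.93 (SE 0.122, edgeR adjusted p = 6.82e-05). Across the whole course, D6 against D4, it was -0.97 (SE 0.122, edgeR adjusted p = 9.05e-06), a level 1.96-fold lower, and -0.95 without the replicate 1 libraries (edgeR adjusted p = 1.75e-05). The D4H8 against D4 difference (log2 0.14, SE 0.120, edgeR adjusted p = 0.608) and the D6 against D5 difference (log2 -0.18, SE 0.121, edgeR adjusted p = 0.275) did not pass the test.

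Uhrf1 (ENSMUSG00000001228, GRCm38 chr17:56303321-56323486, plus strand) encodes the ubiquitin ligase that brings Dnmt1 to hemimethylated CpG sites. Its level was 90.7, 103 and 111 FPKM at D4 and 91.1, 101.98 and 99.2 FPKM at D4H8. At D5 it was 25.4, 39.9 and 45.2 FPKM, and at D6 it was 7.44, 17.9 and 24.3 FPKM. The untreated libraries did not overlap from D4H8 to D5 or from D5 to D6, while those of D4 and D4H8 overlapped. Uhrf1 fell from D4H8 to D5 by -1.40 on the log2 scale (SE 0.291, edgeR adjusted p = 0.00256) and again from D5 to D6 by -1.05 (SE 0.291, edgeR adjusted p = 0.0130). D6 against D4 gave -2.57 (SE 0.304, edgeR adjusted p = 5.31e-06), a level 5.93-fold lower and the lowest log2 fold change among the 7 genes. Without replicate 1 of any stage, these 3 log2 fold changes were -1.22, -0.92 and -2.25 (edgeR adjusted p = 8.33e-06, 0.000127 and 4.40e-09).

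The summed S phase markers were at 1234 to 1276 FPKM at D4H8, 381 to 572 FPKM at D5 and 124 to 292 FPKM at D6. They were lower at each step, as Uhrf1 was, while Dnmt1 passed the test for the first of these steps and not for D6 against D5. In all, 16 of the 16 listed genes were lower at D6 than at D4 at an adjusted p under 0.05, where 31.0% of all tested genes were. Within D6, replicate 1 had the lowest S phase sum (124 FPKM) and the lowest Uhrf1 level. The part of cell cycle exit in the fall of Dnmt1 and Uhrf1 was not tested.

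Both genes have a start site with letters that E2F factors, the transcription factors of the G1 to S transition, can bind. RefSeq start-site windows on GRCm38.p6, from 250 bases before to 50 bases after the start, were searched on both strands for TTTCCCGC, TTTCGCGC, TTTGCCGC and TTTGGCGC. No 2 of these motifs share a position. Of 12 windows found for the 7 genes, 1 of Dnmt1 held 2 matches and 1 of Uhrf1 held 1 match, and the other windows held 0, including the only Dnmt3b window. Among 32851 RefSeq windows of the same length, 2.26% held a match. Windows of Dnmt1, Uhrf1 and Dnmt3b are given because these 3 genes fell most between D4 and D6. Capitals mark the matches, and the letters run 5′ to 3′ on the gene's strand. For Dnmt1 and Uhrf1 only the window with a match is given. Their other windows held 0 matches, with 2 and 12 CpG sites for Dnmt1 and 12 for Uhrf1. The Dnmt1 window is chr9:20952574-20952873 on the minus strand and holds 33 CpG sites. Its matches begin 219 bases before and 33 bases after the start of this window. The Uhrf1 window is chr17:56304063-56304362 on the plus strand and also holds 33 CpG sites. Its match begins 185 bases before the start of this window. The other windows of both genes lie upstream, so these matches lie after the start sites of those windows. The Dnmt3b window is chr2:153649199-153649498 on the plus strand and holds 30 CpG sites.
Dnmt1: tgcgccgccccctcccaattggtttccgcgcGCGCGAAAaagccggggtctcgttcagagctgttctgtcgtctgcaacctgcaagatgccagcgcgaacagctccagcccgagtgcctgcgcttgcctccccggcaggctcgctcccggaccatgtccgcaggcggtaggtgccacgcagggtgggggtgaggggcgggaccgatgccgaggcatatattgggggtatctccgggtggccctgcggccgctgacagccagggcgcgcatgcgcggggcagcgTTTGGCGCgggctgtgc
Uhrf1: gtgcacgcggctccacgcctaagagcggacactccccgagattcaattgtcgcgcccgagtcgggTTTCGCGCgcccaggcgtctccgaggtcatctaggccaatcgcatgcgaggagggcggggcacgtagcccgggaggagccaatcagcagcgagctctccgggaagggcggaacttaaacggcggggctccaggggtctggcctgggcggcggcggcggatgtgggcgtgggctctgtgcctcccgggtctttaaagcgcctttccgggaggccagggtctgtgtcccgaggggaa
Dnmt3b: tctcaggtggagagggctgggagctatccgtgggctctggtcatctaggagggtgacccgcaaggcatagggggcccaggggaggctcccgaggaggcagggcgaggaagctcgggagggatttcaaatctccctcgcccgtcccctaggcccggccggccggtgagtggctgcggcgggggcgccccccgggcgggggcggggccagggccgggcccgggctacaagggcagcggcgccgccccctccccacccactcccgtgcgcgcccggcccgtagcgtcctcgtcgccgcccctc
The median window of all genes held 7 CpG sites, and 26.5% held at least 20. A match is a description of the letters only, and binding of any factor was not measured here.

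Because Dnmt1 and Uhrf1 act as a pair, their ratio within each library was also taken. The Uhrf1 to Dnmt1 ratio of FPKM was 1.81, 1.99 and 1.72 at D4 and 1.4998, 1.60 and 1.52 at D4H8. It was 0.879, 1.25 and 1.17 at D5 and 0.303, 0.668 and 0.819 at D6. Each stage lay below the one before it without overlap, and the Uhrf1 level was under that of Dnmt1 in all D6 libraries. The mean log2 ratio differed by -1.74 (SE 0.441) between D6 and D4 (exact permutation test, two-sided, p = 0.1, the smallest p that 3 against 3 libraries allow).

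Dnmt3b (ENSMUSG00000027478, GRCm38 chr2:153649450-153687730, plus strand), a de novo methyltransferase, was at 11.98, 13.2 and 16.4 FPKM at D4. It was at 9.02, 10.2 and 11.9 FPKM at D4H8, at 2.64, 4.48 and 5.03 FPKM at D5, and at 1.27, 3.03 and 2.92 FPKM at D6. The D5 libraries were all below the D4H8 libraries, while D5 and D6 overlapped. The log2 fold change was -1.36 for D5 against D4H8 (SE 0.261, edgeR adjusted p = 0.00152) and -2.47 for D6 against D4 (SE 0.272, edgeR adjusted p = 2.73e-06), a level 5.53-fold lower. From D5 to D6 it was -0.65 (SE 0.267, edgeR adjusted p = 0.0774), with the replicate number as a block -0.66 (edgeR adjusted p = 0.0190), and without the replicate 1 libraries -0.59 (edgeR adjusted p = 0.00723). Dnmt3b was lowest in replicate 1 of every group apart from D4H8_GSKJ4, and the sums of pluripotent cell markers and of S phase markers were lowest in replicate 1 of all 7 groups. The part of residual pluripotent or cycling cells in its values was not tested. Leaving out all replicate 1 libraries gave -2.22 for D6 against D4 (edgeR adjusted p = 8.43e-09).

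Dnmt3a (ENSMUSG00000020661, GRCm38 chr12:3806007-3914443, plus strand), the other de novo methyltransferase, was at 9.48, 9.17 and 11.9 FPKM at D4 and at 10.1, 10.7 and 11.3 FPKM at D4H8. It was at 11.9, 9.95 and 10.8 FPKM at D5 and at 8.16, 9.16 and 10.2 FPKM at D6. Libraries of neighbouring groups in the order of levels overlapped throughout. The D6 against D4 log2 difference of -0.09 (SE 0.120, edgeR adjusted p = 0.542) did not pass the test, nor did that of -0.03 without the replicate 1 libraries (edgeR adjusted p = 0.856).

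Since Dnmt3b fell and Dnmt3a did not pass the test, the makeup of the de novo pair changed. The Dnmt3a to Dnmt3b ratio of FPKM was 0.791, 0.693 and 0.726 at D4 and 1.12, 1.04 and 0.944 at D4H8. At D5 it was 4.49, 2.22 and 2.15, and at D6 it was 6.43, 3.02 and 3.49. By FPKM, Dnmt3b thus had the higher level in all 3 D4 libraries, and Dnmt3a in all D5 and D6 libraries. The order at D4 rests on the exon lengths used, 16642 bases for Dnmt3a and 5106 for Dnmt3b. In raw counts Dnmt3a was the higher at D4 too, with 3586 against 1390, 2610 against 1155 and 3218 against 1360 in replicates 1, 2 and 3. As a share of their summed FPKM, Dnmt3a was 42.4% ± 1.64 (SD, n = 3) at D4 and 79.8% ± 5.97 at D6. The mean log2 ratio differed by 2.47 (SE 0.338) between D6 and D4 (exact permutation test, two-sided, p = 0.1). The sum of both was 21.5 to 28.3 FPKM at D4 and 9.43 to 13.1 FPKM at D6, without overlap.

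**Figure D2:**
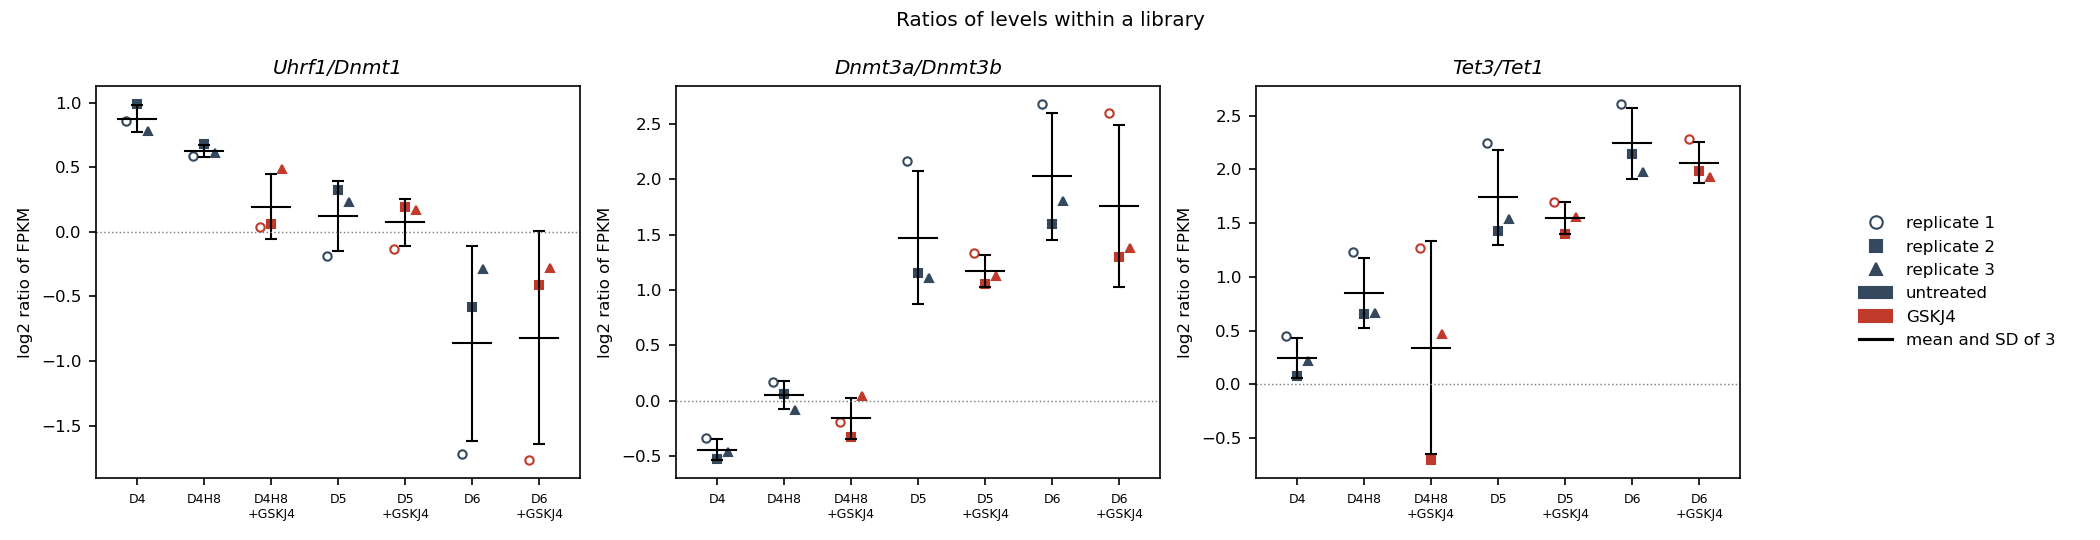
Log2 ratio of FPKM within each library (vertical axes) for Uhrf1 to Dnmt1, Dnmt3a to Dnmt3b and Tet3 to Tet1 in the 7 groups (horizontal axes); markers are libraries, lines and bars the mean and SD of 3, and the dotted line marks equal levels. From D4 to D6 the mean Uhrf1 to Dnmt1 value goes from 0.88 to -0.86, the Dnmt3a to Dnmt3b value from -0.44 to 2.03 and the Tet3 to Tet1 value from 0.24 to 2.24.

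Tet3 (ENSMUSG00000034832, GRCm38 chr6:83362373-83459084, minus strand) had the largest rise of the 3 Tet genes. Its level was 4.97, 5.28 and 6.26 FPKM at D4 and 8.61, 7.09 and 7.45 FPKM at D4H8. At D5 it was 13.8, 9.60 and 10.4 FPKM, and at D6 it was 19.0, 15.8 and 15.3 FPKM. Each untreated stage lay above the one before it without overlap. Tet3 rose from D4H8 to D5 (log2 0.55, SE 0.165, edgeR adjusted p = 0.0228) and from D5 to D6 (log2 0.68, SE 0.165, edgeR adjusted p = 0.00595), and D6 against D4 gave 1.68 (SE 0.169, edgeR adjusted p = 1.14e-06), a level 3.19-fold higher. Without the replicate 1 libraries the D6 against D4 value was 1.53 (edgeR adjusted p = 2.92e-08). The D4H8 to D5 step depended on D4H8 replicates 2 and 3 and on D5 replicate 1, since without them the adjusted p in edgeR was 0.0971, 0.0806 and 0.117.

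Tet2 (ENSMUSG00000040943, GRCm38 chr3:133463679-133545139, minus strand), which unlike Tet1 and Tet3 has no CXXC domain of its own, was at 2.04, 3.30 and 3.16 FPKM at D4. It was at 3.79, 4.07 and 3.69 FPKM at D4H8, at 4.04, 4.23 and 4.30 FPKM at D5, and at 4.52, 4.11 and 4.70 FPKM at D6. All D4 libraries were below all later untreated libraries, and the later stages lay close together. D6 against D4 gave 0.73 on the log2 scale (SE 0.133, edgeR adjusted p = 0.000281), a level 1.66-fold higher, and none of the 3 single steps passed the test (edgeR adjusted p = 0.121, 0.530 and 0.271 in order). Without the replicate 1 libraries the D6 against D4 value was 0.54 (edgeR adjusted p = 0.00127).

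Tet1 (ENSMUSG00000047146, GRCm38 chr10:62804570-62908996, minus strand), the main Tet gene of mouse ESCs together with Tet2, was at 3.65, 5.01 and 5.40 FPKM at D4 and at 3.68, 4.51 and 4.69 FPKM at D4H8. It was at 2.91, 3.57 and 3.56 FPKM at D5 and at 3.11, 3.58 and 3.89 FPKM at D6. The D4 and D6 libraries overlapped, because D4 replicate 1 lay inside the D6 range, and that library also had the lowest pluripotent cell marker sum at D4 (136 FPKM, against 316 and 256 FPKM), the part of which was not tested. The D6 against D4 difference of -0.34 on the log2 scale (SE 0.130, edgeR adjusted p = 0.0356) passed the test, but 6 of its 19 alternatives did not. Without the replicate 1 libraries it was -0.38 (edgeR adjusted p = 0.00753). The edgeR adjusted p was 0.0888 without the low-count filter and 0.192 with all 21 libraries in the fit. Leaving out D4 replicate 2, D4 replicate 3, D6 replicate 1 or D6 replicate 2 gave an edgeR adjusted p of 0.104, 0.0726, 0.114 and 0.0829. From D4H8 to D5, where the libraries did not overlap, it was -0.35 (SE 0.130, edgeR adjusted p = 0.0581), with the replicate number as a block -0.35 (edgeR adjusted p = 0.0169), and without the replicate 1 libraries -0.35 (edgeR adjusted p = 0.0284).

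Within the Tet family the balance moved towards Tet3. Tet3 made up 42.6% ± 3.90 (SD, n = 3) of the summed Tet FPKM at D4, 48.6% ± 4.36 at D4H8, 59.5% ± 6.15 at D5 and 67.5% ± 3.63 at D6. Tet1 went from 35.8% ± 1.41 at D4 to 14.4% ± 2.41 at D6, and Tet2 from 21.6% ± 2.58 to 18.1% ± 1.41. The summed level of the family was 10.7 to 14.8 FPKM at D4 and 23.45 to 26.6 FPKM at D6, without overlap. The Tet3 to Tet1 ratio of FPKM was 1.36, 1.05 and 1.16 at D4 and 6.10, 4.40 and 3.94 at D6, a difference of 2.00 in mean log2 ratio (SE 0.218, exact permutation test, two-sided, p = 0.1).

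Across the stages the calls of the 7 genes stood against a changing background. Between D4 and D4H8, 0 of the 7 passed in edgeR (4.38% of 17519 tested genes did), 2 had an unadjusted p under 0.05 (Tet2 and Tet3, where 16.5% of genes did), and DESeq2 called 0. From D4H8 to D5, 4 of the 7 passed, where 27.7% of genes did. Of these 4, 1 was higher (17.2% of genes) and 3 were lower (10.5%). Then, from D5 to D6, 2 of the 7 passed where 34.3% did. Between D6 and D4, 6 of the 7 passed, where 63.9% of all tested genes did, so a called change was common there. Of the 6, 2 were higher (32.9% of genes) and 4 lower (31.0%). The median log2 fold change of the 7 genes was -0.34 for D6 against D4, beside -0.04 over all genes tested. FPKM groups did not overlap for 5 of the 7 genes in that comparison, against 69.0% of genes.

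**Figure D3:**
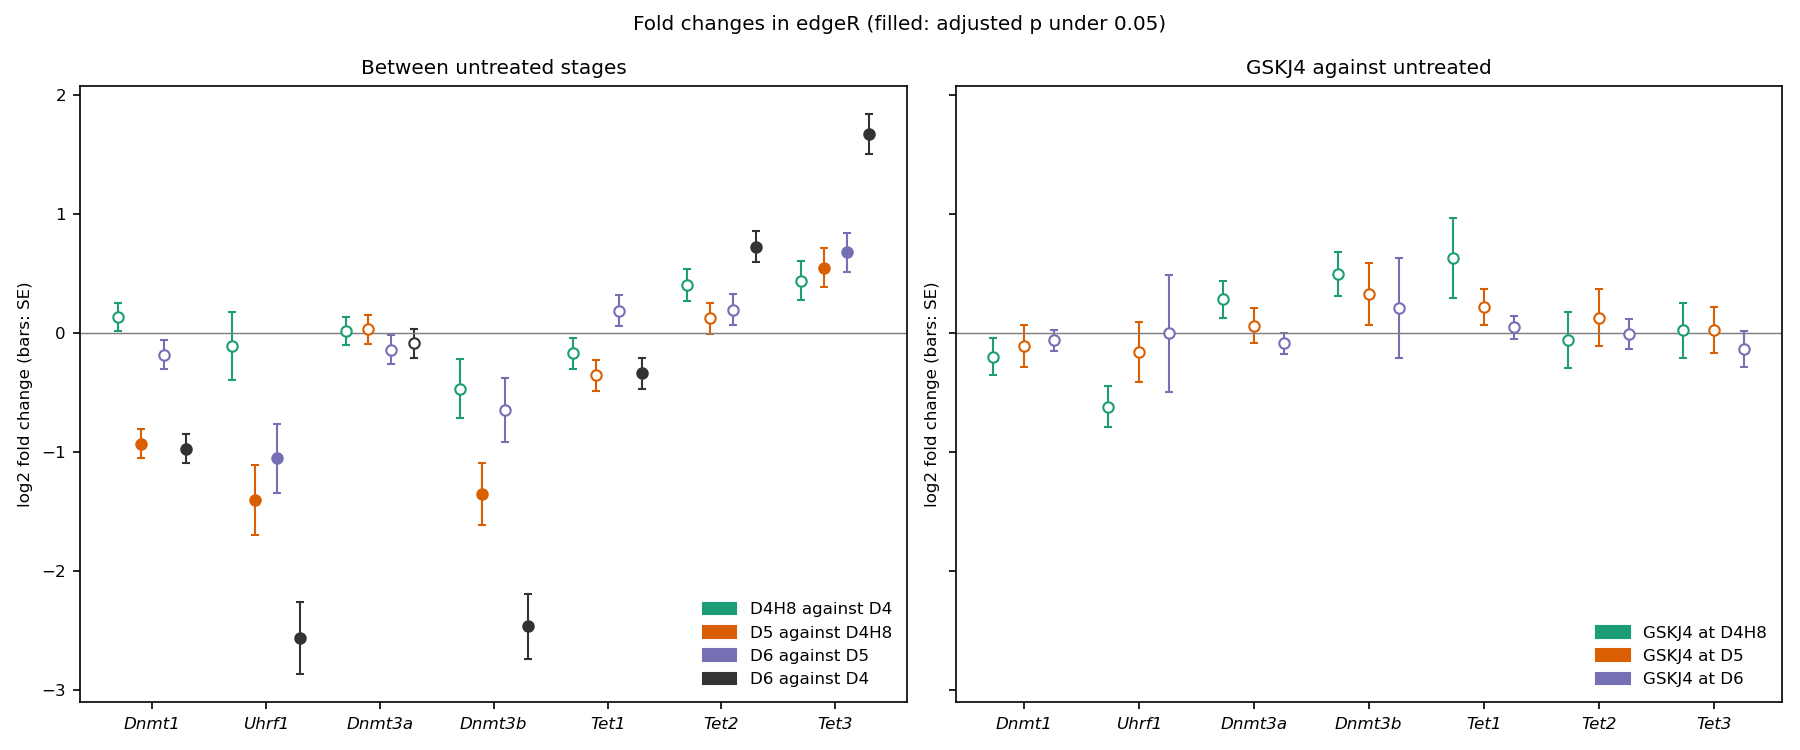
Log2 fold change from edgeR (vertical axis, shared by both panels; bars give the SE) for the 7 genes (horizontal axis), between untreated stages on the left and for GSKJ4 against untreated cells of the same stage on the right; filled points have an adjusted p under 0.05. Filled points appear among the stage comparisons only, from -2.57 for Uhrf1 to 1.68 for Tet3 in D6 against D4.

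The second question was whether these genes changed after a day of GSKJ4. None of the 7 passed the test at D4H8, D5 or D6 in edgeR. At D4H8, where 3.96% of 16269 tested genes passed, 2 of the 7 had an unadjusted p under 0.05 (25.1% of genes did), Uhrf1 lower and Dnmt3b higher, and DESeq2 called 1, Uhrf1. The shares of all genes are from edgeR, and none is given for DESeq2. At D5, where 0.00613% of 16309 genes passed, 0 of the 7 had an unadjusted p under 0.05 (4.7% of genes did). At D6, where 0.0% of 16301 genes passed, again 0 did (1.36% of genes), and DESeq2 called 0 of the 7 at both stages. These shares are from fits without a replicate term, although the replicate numbers paired the samples at D6. The share of all genes passing there with the replicate number as a block is not given.

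At D4H8 the Uhrf1 level was 60.9, 55.8 and 79.4 FPKM with GSKJ4 and 91.1, 101.98 and 99.2 FPKM without. The treated libraries were all lower, by -0.62 on the log2 scale (SE 0.173, edgeR adjusted p = 0.0737), just outside the threshold. Leaving out each library in turn gave -0.74 to -0.56. It passed in DESeq2 (adjusted p = 0.0320), without the low-count filter (edgeR adjusted p = 0.0485) and without D4H8_GSKJ4 replicate 2 (edgeR adjusted p = 0.0440), and not in the 9 other alternatives. The summed S phase markers were also lower in the treated libraries, 780 to 986 FPKM against 1234 to 1276 FPKM. In the test 2 of those 16 genes were lower, Rrm2 and Pcna, against 1.85% of all tested genes, and the others did not pass. Neural progenitor markers (7 genes) summed to 59.0 to 120 FPKM treated and 231 to 319 FPKM untreated. Of the 7, 3 were lower in the test (Olig2, Hes5 and Nkx6-1), as 1.85% of all tested genes were. Between D4 and D6, 5 of the 7 fell but Nkx6-1 rose from 27.2 to 143 FPKM (log2 2.49, SE 0.305). Of all tested genes, 31.0% fell and 32.9% rose in that comparison. The sum was 156 to 235 FPKM at D4 and 154 to 220 FPKM at D6, so it does not follow progenitor cells alone. Motor neuron markers summed to 11.6 to 27.1 FPKM treated against 55.3 to 60.1 FPKM untreated. The pluripotent cell sum overlapped between the groups (125 to 283 FPKM treated, 62.0 to 262 FPKM untreated). The part of these cell states in the Uhrf1 value was not tested.

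Dnmt1 at D4H8 was 59.4, 53.4 and 56.7 FPKM with GSKJ4, just under the 60.8 to 65.1 FPKM without, -0.20 on the log2 scale (SE 0.159, edgeR adjusted p = 0.468). The Uhrf1 to Dnmt1 ratio of FPKM was 1.03, 1.04 and 1.40 with GSKJ4 and 1.4998 to 1.60 without, a difference of -0.43 in mean log2 ratio (SE 0.148, exact permutation test, two-sided, p = 0.1). Dnmt3a was 13.2, 12.6 and 14.2 FPKM with GSKJ4 against 10.1 to 11.3 FPKM without (log2 0.28, SE 0.155, edgeR adjusted p = 0.284). Dnmt3b was 15.1, 15.8 and 13.8 FPKM with GSKJ4 against 9.02 to 11.9 FPKM without (log2 0.50, SE 0.183, edgeR adjusted p = 0.133). Both de novo genes were thus higher in every treated library than in every untreated one, but neither passed the test over all genes. In all, 5 of the 7 genes had FPKM groups without overlap at D4H8, where 32.6% of tested genes did, 3 of them higher (18.4% of genes) and 2 lower (14.3%). Tet1 is counted among the 3 with its lowest treated library at 4.70 FPKM and its highest untreated library at 4.69 FPKM.

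Among the Tet genes at D4H8, Tet1 was 4.70, 10.4 and 4.81 FPKM with GSKJ4 and 3.68, 4.51 and 4.69 FPKM without. The difference (log2 0.63, SE 0.338, edgeR adjusted p = 0.274) rested on D4H8_GSKJ4 replicate 2, without which it was 0.06 (edgeR adjusted p = 0.791). Tet2 was 3.22, 4.83 and 3.18 FPKM with GSKJ4, which spanned the 3.69 to 4.07 FPKM without. Tet3 was 11.3, 6.36 and 6.64 FPKM with GSKJ4, which likewise spanned the 7.09 to 8.61 FPKM without.

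At D5 and D6 the treated and untreated libraries lay closer together. The log2 fold changes of the 7 genes ran from -0.16 to 0.33 at D5 and from -0.13 to 0.21 at D6. Without D5_GSKJ4 replicate 2 those at D5 ran from -0.18 to 0.34, and again none passed in edgeR. Within the replicate numbers, which paired the samples at D6, Dnmt3b was higher with GSKJ4 in 3 of 3 pairs (log2 ratio of FPKM 0.09, 0.23 and 0.26), and Dnmt1 and Tet3 were lower in 3 of 3. None of the 7 passed there with the replicate number as a block either. Groups did not overlap for 1 of the 7 genes at D5, Tet1 (4.15, 3.84 and 4.05 FPKM with GSKJ4 against 2.91 to 3.57 FPKM without), where 11.4% of genes did not, and for 0 at D6, where 5.06% did not. Uhrf1 with GSKJ4 was 22.4, 35.7 and 44.2 FPKM at D5 and 6.98, 19.9 and 23.0 FPKM at D6, and Tet3 was 13.4, 10.1 and 11.9 FPKM and then 17.1, 14.1 and 14.7 FPKM. With GSKJ4 too, every D6 library was above every D5 library for Tet3, and the Uhrf1 levels were lower at D6 than at D5 within each replicate number, a step that was not tested in treated cells.

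Whether the GSKJ4 effect differed between stages was tested directly with an interaction term. None of the 7 passed for D5 minus D4H8, D6 minus D4H8 or D6 minus D5 (0.249%, 0.735% and 0.0% of 18103 genes did), and 0 had an unadjusted p under 0.05 in any of them (10.0%, 13.7% and 1.98% of genes did), and no setting tried, DESeq2 included, called a member. For Uhrf1 the effect was 0.45 higher on the log2 scale at D5 than at D4H8 (SE 0.509, edgeR adjusted p = 0.809) and 0.63 higher at D6 than at D4H8 (SE 0.511, edgeR adjusted p = 0.638), so the D4H8 value was not shown to be particular to that stage.

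**Figure D4:**
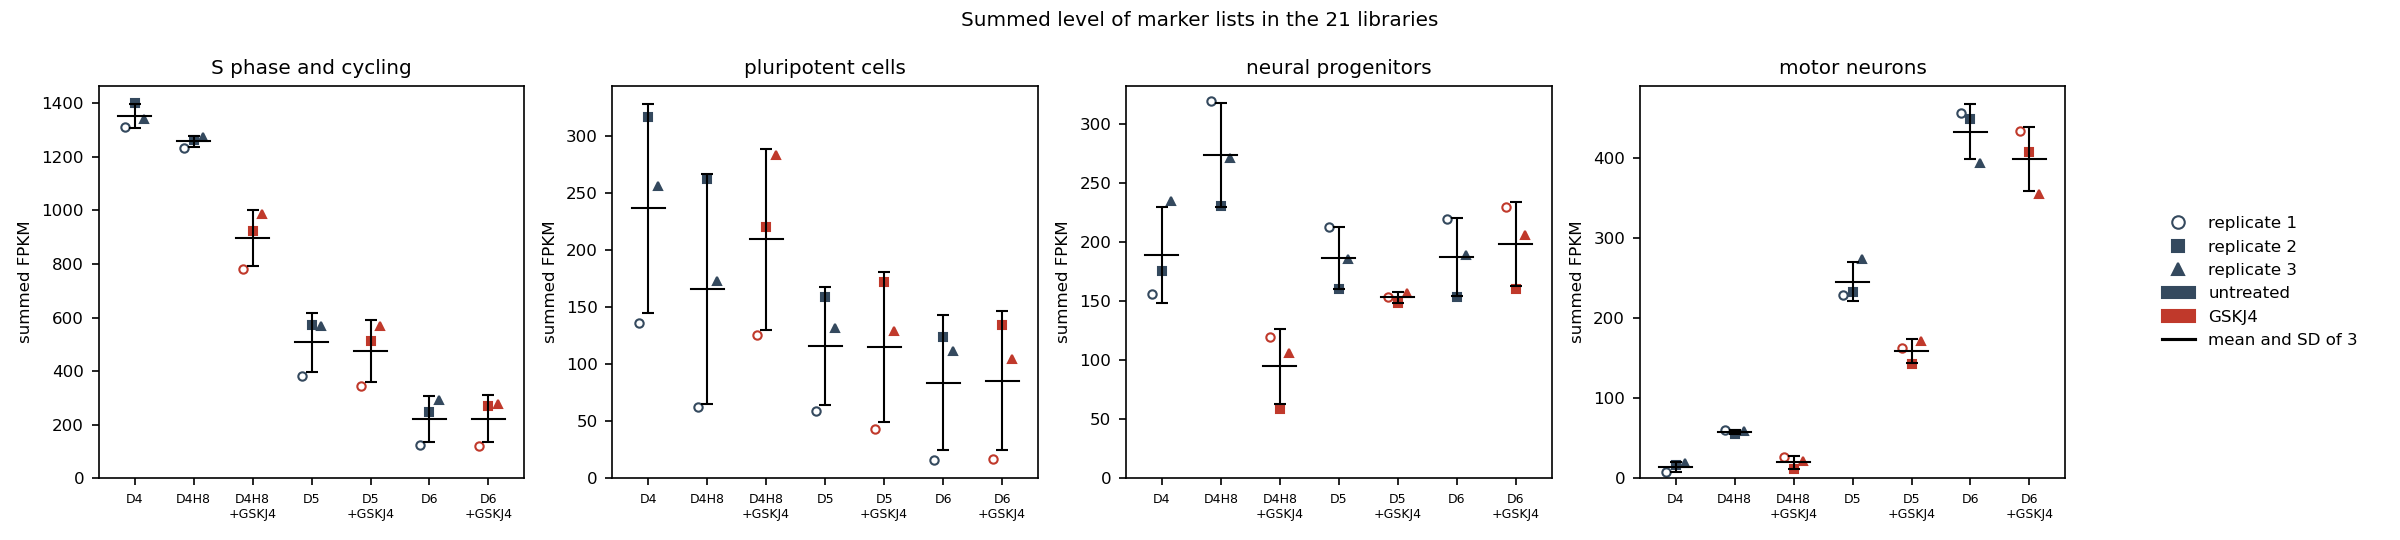
Summed FPKM (vertical axes, starting at 0) of 16 S phase and cycling genes, 9 pluripotent cell genes, 7 neural progenitor genes and 6 motor neuron genes in the 7 groups (horizontal axes); markers are libraries, with the shape giving the replicate number, and lines and bars the mean and SD of 3. The S phase sum is 780 to 986 FPKM in D4H8_GSKJ4 against 1234 to 1276 FPKM in D4H8, and replicate 1 has the lowest pluripotent cell sum in every group.

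Partners of the methyltransferases were taken from a list of 11 genes, of which 10 could be tested. Between D4 and D6, 7 fell and 1 rose, where 31.0% and 32.9% of all genes did, with a median log2 fold change of -0.68. Cdca7 (log2 -3.07, SE 0.249) and Hells (log2 -2.72, SE 0.346), which form a chromatin remodeller needed for DNA methylation in heterochromatin, fell from 77.7 to 8.91 FPKM and from 45.1 to 6.66 FPKM on average. Pcna, the replication clamp that Dnmt1 binds, fell from 213 to 33.2 FPKM (log2 -2.64, SE 0.236). Zfp57, which keeps methylation at imprinted regions, was the one that rose, from 11.2 to 54.4 FPKM (log2 2.36, SE 0.140). At D4H8, 2 of the 10 were lower with GSKJ4, as 1.85% of all tested genes were: Pcna (log2 -0.94, SE 0.190, edgeR adjusted p = 0.0331, kept in 8 of 12 alternatives) and Cdca7 (log2 -0.75, SE 0.171, edgeR adjusted p = 0.0449, kept in 6 of 12). Pcna is also among the S phase markers above, so its calls are counted in both lists.

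Oxidised and deaminated bases are removed by base excision repair, for which 14 of 15 listed genes could be tested. Between D4 and D6, 11 fell and 1 rose, against 31.0% and 32.9% of all genes, with a median log2 fold change of -0.97. Among them Mbd4, a glycosylase that binds methylated CpG, fell from 7.49 to 2.00 FPKM (log2 -1.84, SE 0.184), and the uracil glycosylase Ung fell from 9.25 to 2.55 FPKM (log2 -1.81, SE 0.360). Smug1, a glycosylase for uracil and 5-hydroxymethyluracil, rose from 5.94 to 20.5 FPKM (log2 1.87, SE 0.225), the opposite way to Ung. Apobec1, a cytidine deaminase, had a log2 fold change of -2.28 (SE 0.585) at levels under 1 FPKM. Tdg, the glycosylase that excises the oxidised products of the Tet enzymes, did not pass (log2 -0.17, SE 0.106, edgeR adjusted p = 0.177). With GSKJ4 at D4H8, 0 of the 14 passed in edgeR and 5 had an unadjusted p under 0.05 there (25.1% of all genes did). DESeq2 called 3, and the share of all genes it called is not given.

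The list of readers of methylated or unmethylated CpG held 14 genes, all tested. Between D4 and D6, 9 rose, against 32.9% of all genes, and the other 5 did not pass, so the 9 called stood near the 63.9% called over all genes, with a median log2 fold change of 0.49. Zbtb4, a zinc finger reader, rose from 1.01 to 2.86 FPKM (log2 1.58, SE 0.182). Cxxc4, a CXXC protein whose gene neighbours Tet2 in the genome, rose from 1.70 to 8.43 FPKM (log2 2.38, SE 0.151), and Cxxc5, a related CXXC protein, from 13.01 to 38.4 FPKM (log2 1.64, SE 0.119). At D4H8, 1 of the 14 passed with GSKJ4 in edgeR, where 3.96% of all genes did. This was Cxxc4, from 2.90 FPKM without to 1.10 FPKM with the inhibitor (log2 -1.43, SE 0.258, edgeR adjusted p = 0.0249, kept in 9 of 12 alternatives). DESeq2 called 3 of the 14, and the share of all genes it called is not given.

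Supply of S-adenosylmethionine, the methyl donor, and of 2-oxoglutarate was covered by 16 genes, all tested. Between D4 and D6, 11 fell and 3 rose, again beside 31.0% and 32.9% of all genes, with a median log2 fold change of -0.82. Ahcy, which clears the product of methylation S-adenosylhomocysteine, fell from 109.7 to 27.8 FPKM (log2 -1.92, SE 0.135), and the folate enzymes Shmt1 and Mthfd1 fell by 2.57 and 2.38 on the log2 scale (SE 0.274 and 0.330). Idh1, which makes 2-oxoglutarate in the cytosol, rose from 40.3 to 186 FPKM (log2 2.28, SE 0.187). At D4H8, 2 of the 16 were lower with GSKJ4, as 1.85% of all tested genes were. These were the isocitrate dehydrogenase genes Idh2, at 45.3 FPKM against 89.2 FPKM (log2 -1.03, SE 0.204, edgeR adjusted p = 0.0313, kept in 8 of 12 alternatives), and Idh1, at 36.0 FPKM against 64.3 FPKM (log2 -0.87, SE 0.205, edgeR adjusted p = 0.0498, kept in 7 of 12). The isocitrate dehydrogenase gene Idh3a, at 16.3 FPKM with GSKJ4 against 16.5 FPKM without, did not pass. Neither did Ogdh, at 41.5 FPKM against 30.0 FPKM. At D5, 0 genes of each of these 4 lists passed in edgeR or DESeq2. In the order described, 0, 2, 2 and 1 had an unadjusted p under 0.05 in edgeR (4.7% of all genes did). At D6 again 0 passed in either tool, with 0, 1, 0 and 0 at an unadjusted p under 0.05 (1.36% of all genes).

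Genes with the most similar pattern were found by Pearson's r of log2 CPM over the 21 libraries, among 14829 genes. These libraries share stages and treatment, so the values describe likeness only. Uhrf1 was most like the replicative helicase gene Mcm5 (r = 0.994), followed by Cdca7 and Kif20a (both r = 0.992). Dnmt1 was most like the histone methyltransferase gene Suv39h1 (r = 0.973), then Mdc1 (r = 0.968) and Eftud2 (r = 0.966). Dnmt3b was most like Mthfd1 (r = 0.987), of the methyl donor list, and then the replication factor genes Rpa1 (r = 0.982) and Rfc5 (r = 0.981). Tet3 was most like Ppp1r12b (r = 0.981), Vash1 (r = 0.980) and Ppm1l (r = 0.979). The genes nearest to the other members were less close: Ankfy1 for Tet1 (r = 0.940), Nktr for Tet2 (r = 0.894) and Edem1 for Dnmt3a (r = 0.868). Among the 7 genes themselves, Uhrf1 and Dnmt3b were the closest pair (r = 0.936), and Tet3 ran opposite to Uhrf1 (r = -0.93) and to Dnmt3b (r = -0.92).

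Reads from neighbouring genes could add little to these values. Dnmt3c, a near copy of Dnmt3b, had 0 to 10 counts, at most 0.866% of the Dnmt3b count of the same library. The antisense genes Dnmt3aos and Gm42567 share 133 exonic bases with Dnmt3a and 43 with Tet2, and had at most 4 and 2 counts. The values are per gene, and isoforms were not analysed here.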

How the data were processed

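Poly-A RNA from 21 libraries was sequenced by the authors, who trimmed reads with Fastp, aligned them to mm10 with HISAT2 and counted reads per gene with HTSeq. The deposited table of counts holds raw values for 55400 genes and 21 libraries, and the deposited FPKM table scales them by exonic length and counted reads (FPKM recomputed from the counts differed by at most 0.005). The counting strand is not given in the sources used here. Total counts were 14982115 to 34383842 per library, and this number of reads limits the precision of low values.

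Groups and replicate numbers came from the labels. The replicates are biological per the labels, and the study's text describes the 3 at each stage as independent experiments. Symbols and positions are from GENCODE M21 (GRCm38), and start-site windows from RefSeq (GRCm38.p6). The test was edgeR's quasi-likelihood test (edgeR 4.0.16, R 4.3.3) with TMM, filterByExpr (minimum count 10) and p-values adjusted over all tested genes by Benjamini-Hochberg, with a threshold of 0.05: stages on the 12 untreated libraries, GSKJ4 on the 6 libraries of each stage, and differences in GSKJ4 effect on 18. The SE is the absolute log2 fold change divided by the square root of F. Ratios of FPKM took no pseudocount and an exact two-sided permutation test. Likeness used log2 CPM with a prior count of 2. The steps were tested on simulated data. The alternatives were RLE and upper-quartile scaling, no filter, DESeq2 1.42.0, a replicate block, all 21 libraries in 1 fit, each library left out and, added after seeing the data, replicates 2 and 3 only. Same-numbered libraries deviated together (every r over 0.1) for D5 against D4H8 (0.314, 0.147 and 0.136), D6 against D5 (0.310, 0.144 and 0.226) and GSKJ4 at D6 (0.663, 0.316 and 0.446). These pairings come from the numbers in the labels, and in the other comparisons at least 1 r was 0.1 or below.

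The 7 genes and all lists were chosen with earlier results of these data known. From the pathway lists, up to 4 genes called in D6 against D4 and up to 3 called in a GSKJ4 comparison were named by the size of their log2 fold change, Tdg was named after its values were seen, 1 gene that the rule names is not reported here, and the 3 most similar genes were found per member.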

Additional observations from a re-analysis of the deposited data

How the results depend on the processing

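Of 832 alternative values for 51 log2 fold changes, 774 kept their direction and their side of the threshold, 10 lost and 15 gained a call, and 33 turned sign, all 33 of them among results that had not passed. None of the 228 alternatives to the 12 called changes turned sign, and the 10 losses were those of Tet1 for D6 against D4 and Tet3 for D5 against D4H8 (also lost with all 21 libraries in the fit). Upper-quartile scaling shifted the median of all tested genes by -0.15 for D6 against D4, and no called change there was lost with it. The number of the 7 genes called with GSKJ4 at D4H8 was 0, and 1 with no filter, 1 in DESeq2 and 0 to 1 when each library was left out in turn. The replicate block, with the pairing checked above, gave 0, 5, 3 and 6 calls for the stage comparisons in order and 0 for each GSKJ4 comparison, and changed no other call than those of Tet1 and Dnmt3b given with their results. In the comparisons where the numbers did not pair the samples, it gave the same count of calls as the fit without it. The shares of all genes that the block called are not given.

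Values that had not passed turned sign in these cases, and the cause was not tested. With upper-quartile scaling, Dnmt3a was -0.011 for D4H8 against D4 and -0.0076 for D5 against D4H8, and Uhrf1 with GSKJ4 at D6 was 0.0068. On replicates 2 and 3 only, Dnmt3a for D5 against D4H8 was -0.059, and with the block Tet3 with GSKJ4 at D4H8 was -0.011. Leaving out each library gave -0.066 to 0.13 for Dnmt3a in D4H8 against D4 and -0.055 to 0.056 in D5 against D4H8. With GSKJ4 at D4H8 it gave -0.36 to 0.082 for Tet2 and -0.27 to 0.17 for Tet3. At D5 it gave -0.28 to 0.021 for Dnmt1, -0.014 to 0.15 for Dnmt3a, -0.38 to 0.047 for Uhrf1, -0.22 to 0.34 for Tet2 and -0.11 to 0.22 for Tet3. At D6 it gave -0.078 to 0.53 for Dnmt3b, -0.34 to 0.36 for Uhrf1, -0.0067 to 0.10 for Tet1, -0.13 to 0.069 for Tet2 and -0.26 to 0.0043 for Tet3. Among the log2 ratios, the D6 against D4 difference of Dnmt3a to Dnmt3b was 2.03 with a pseudocount of 1. Their GSKJ4 differences ran from -0.49 to 0.045 at D5 and -0.69 to 0.059 at D6 for Dnmt3a to Dnmt3b, and from -0.97 to 0.016 at D4H8, -0.34 to 0.066 at D5 and -0.31 to 0.0024 at D6 for Tet3 to Tet1. For Uhrf1 to Dnmt1 they ran from -0.20 to 0.057 at D5 and -0.39 to 0.52 at D6.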
